A study of Homo sapiens with 4 samples.

Results

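The PF+2%PEGDA engineered prostate cancer tissue (EPCaT) was set against both end gels of its series, the PF EPCaT without added PEGDA and the PF+3%PEGDA EPCaT, to find genes whose level did not follow the order of the gels. The genes taken were those with at least 5 CPM (counts per 1000000 of the scaled library size) in any of the 3 EPCaT libraries, which were 12048 of the 17791 genes in the table. In each EPCaT, PC-3 prostate cancer cells (derived from a bone metastasis) and BJ-5ta fibroblasts (foreskin cells carrying telomerase) were mixed at 5:1 within a gel of fibrinogen linked to polyethylene glycol (PF). Excess polyethylene glycol diacrylate (PEGDA), a crosslinker, was added to the PF at 2% or 3% (w/v) to tune stiffness. The EPCaTs carried no other treatment and were sampled on day 15, and the fourth library came from the same 2 lines grown together in 2D. Each library was a single one, with the RNA of an EPCaT library pooled from more than 2 tissues, so no difference below has a replicate check and every statement is about these libraries.

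Depth was even, with total counts of 13760301 to 15687894 per library and 1 count worth 0.0599 to 0.0731 CPM. The labelled cells were visible in all 3 EPCaT libraries. The summed level of 26 epithelial markers was 9206 CPM in PF, 10220 in PF+2%PEGDA and 9938 in PF+3%PEGDA, and that of 21 fibroblast markers was 2030, 2093 and 1751 CPM. CTNNA1, the alpha-catenin gene that PC-3 cells are known to lack, was at 5.40, 6.18 and 8.27 CPM. Of 14 endothelial and blood cell markers 9 were in the table and 4 were measured (PECAM1, KDR, ESAM and CD68), with sums of 309, 359 and 423 CPM that kept the order of the gels, while VWF and TEK stood at 2 to 6 counts and HBA1 at 0 counts in PF+2%PEGDA. In bulk RNA, fewer cells of a type and less RNA per cell cannot be told apart.

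Interferons are cytokines released by cells that sense viral or misplaced nucleic acid. Through their receptors and the kinases JAK1 and TYK2 they activate a transcription factor complex, with STAT2 and IRF9 among its subunits, that binds the interferon-stimulated response element in the promoters of many antiviral genes. The products of those genes include RNA-binding proteins that block translation, synthetases that start RNA decay, and the ubiquitin-like ISG15. Cancer cell lines often carry some of this programme without added interferon.

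Of the 12048 genes, 2888 (24.0%) had a PF+2%PEGDA level above both end gels and 2728 (22.6%) had one below both, counting any difference. When the exact 95% counting interval of the ratio had to exclude equality against each end gel, 813 (6.75%) lay above and 646 (5.36%) below. When the nearer end gel also had to be at least 1.5-fold away, 47 genes (0.390%) were called above both and 72 (0.598%) below both. By the same 1.5-fold rule the PF library lay outside both other EPCaTs for 1614 genes (13.4%) and the PF+3%PEGDA library for 366 (3.04%), against 119 (0.988%) for PF+2%PEGDA. The middle gel was therefore the library least often outside the other 2. At the fold threshold, SLMO2-ATP5E (1.505-fold) and ZNF280C (1.502-fold) lay just inside, and RMI2 (1.499-fold, above) and SNHG28 (1.499-fold, below) just outside. At the level threshold, 277 genes had a highest EPCaT level between 5 and 6 CPM.

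**Figure D1:**
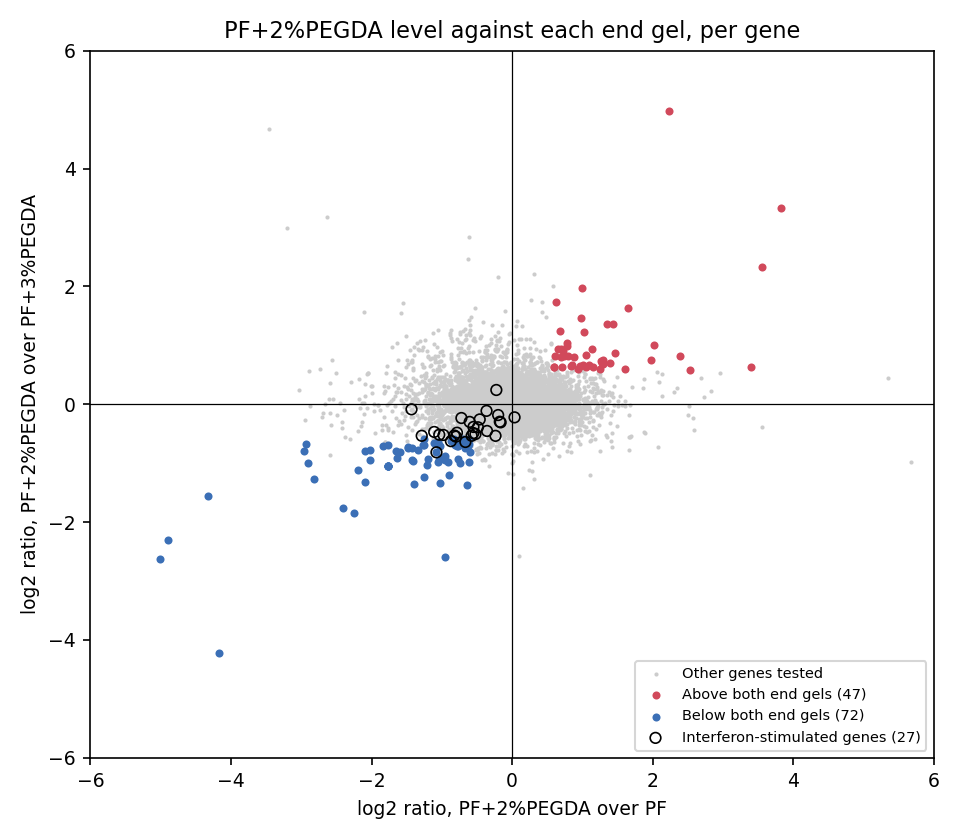
Each point is 1 of 12048 genes, with the log2 ratio of PF+2%PEGDA to PF on the x axis and to PF+3%PEGDA on the y axis. The 47 genes called above both end gels are red, the 72 called below both are blue, and rings mark the 27 measured interferon-stimulated genes, of which 25 lie to the lower left of the origin.

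A gene can differ from the mean of the end gels and still lie between them. Against that mean, 148 genes (1.23%) were at least 1.5-fold higher in PF+2%PEGDA with an interval that excluded equality, and 440 (3.65%) were lower. Among the 148, 3 lay between the end gels, and the same 47 genes were outside both by the call. Among the 440, 162 lay between the end gels and 403 (91.6%) had PF above PF+3%PEGDA, as NEAT1, a nuclear long noncoding RNA, had at 1563, 267 and 251 CPM in the PF, 2% and 3% gels. The rest of the account therefore uses the place relative to both end gels.

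The group most often below both end gels was that of the interferon-stimulated genes. Of 30 listed, 27 were measured, and 25 of them (92.6%) were lower in PF+2%PEGDA than in both end gels, beside 22.6% of all genes tested. For 23 the counting intervals excluded equality on both sides, beside 5.36% of all genes, and RSAD2, IFIT2 and OASL also passed 1.5-fold, beside 0.598%. The list had no member above both. It was chosen with earlier results of these data known. Its genes belong to 1 programme and were read in 1 library per gel, so they are not replicates of a gel. Values below follow the order PF, PF+2%PEGDA, then PF+3%PEGDA, named here as the PF, 2% and 3% gels. Its summed level was 8881 CPM in PF, 6050 in the 2% gel, 8105 in the 3% gel and 12030 in the 2D coculture. The median log2 ratio to the mean of the end gels was -0.51, where that of all genes was -0.00. It was -0.58 to PF and -0.47 to PF+3%PEGDA. With 25 of the 27 below both, these medians had to be negative, and they give only the size.

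Promoters of these genes are shown because most of those on hand hold the letters bound in the interferon response. The list consists of known interferon targets, so it is not independent of that element. The core of the interferon-stimulated response element was searched as GAAANNGAAA on both strands in the RefSeq windows from 250 bases before to 50 after each gene's start (GRCh38.p14), with overlapping matches counted. It was found for 15 of the 20 listed genes that have an entry (75.0%), for 368 of 9759 tested genes (3.77%) and in 1255 of all 35116 windows (3.57%). Among genes called below both it was found for 3 of 45 (6.67%), and among those called above both for 0 of 31. A match is a description of the letters only. Stretches around a match, given 5′ to 3′ on the strand of the gene with the matched core in capitals, were as follows.
RSAD2, chr2:6877617-6877656, plus strand: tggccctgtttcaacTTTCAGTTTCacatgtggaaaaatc
IFIT1, chr10:89392505-89392544, plus strand: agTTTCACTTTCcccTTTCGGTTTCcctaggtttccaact
IFIT3, chr10:89332463-89332502, plus strand: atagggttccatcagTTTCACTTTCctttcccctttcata
ISG15, chr1:1013375-1013414, plus strand: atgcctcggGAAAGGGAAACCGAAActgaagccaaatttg
BST2, chr19:17405730-17405769, minus strand: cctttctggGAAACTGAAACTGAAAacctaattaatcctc
IFIT1 carries 2 separate cores in the stretch, and ISG15 and BST2 each carry 2 overlapping ones. OAS1, DDX58, STAT2, IRF1 and IRF9 are the 5 with an entry and no match in the window. IFIT2, OASL, MX2, OAS2, IRF7 and USP18 were not among the 20.

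RSAD2, which encodes viperin, an antiviral enzyme that makes a chain-terminating nucleotide, was at 115 CPM in PF, 54.4 in the 2% gel, 95.8 in the 3% gel and 160 in the 2D coculture. The PF+2%PEGDA level was the lowest of all 4 libraries, 1.76-fold under the nearer end gel (95% interval 1.61 to 1.92). CMPK2, the mitochondrial nucleotide kinase gene next to RSAD2 on chromosome 2, followed it at 96.6, 56.0, 91.4 and 112 CPM (1.63-fold under the nearer end gel, 1.50 to 1.78). RSAD2 and CMPK2 each had end gels that stood close together with the middle gel apart.

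The IFIT proteins bind foreign 5′ ends of RNA and hold back its translation. IFIT2 was at 155, 84.6 and 131 CPM in the PF, 2% and 3% gels, and at 317 in 2D (1.54-fold under the nearer end gel, 1.44 to 1.66). IFIT1 was at 293, 168 and 246 CPM (1.46-fold, 1.39 to 1.54) and IFIT3 at 175, 99.1 and 143 CPM (1.44-fold, 1.35 to 1.54). IFIT5 differed less, at 61.7, 54.6 and 67.1 CPM. All 4 were lowest in PF+2%PEGDA and highest in the 2D coculture.

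OAS1, OAS2 and OAS3 make 2′-5′ oligoadenylates that switch on the RNA-degrading RNase L, and OASL is their inactive relative that aids RIG-I. OASL was at 64.4, 40.6 and 63.3 CPM in the PF, 2% and 3% gels (1.56-fold under the nearer end gel, 1.41 to 1.73). OAS2 was at 730, 498 and 699 CPM (1.40-fold, 1.36 to 1.45), OAS1 at 322, 212 and 261, and OAS3 at 1180, 716 and 841. The end gels nearly coincided for OASL and OAS2, whereas for OAS3 the PF level stood well above both PEGDA gels.

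Among the dynamin-like GTPases that trap viral particles, MX1 was at 754, 515 and 673 CPM and MX2 at 90.9, 37.3 and 54.0 CPM. BST2, tetherin, which holds budding virions at the membrane, was at 302, 202 and 293 CPM (1.45-fold under the nearer end gel, 1.38 to 1.52). BISPR, a long noncoding RNA read from the promoter region that it shares with BST2, was also called below both, at 7.07, 2.96 and 7.02 CPM (2.37-fold, 1.65 to 3.45). ISG15 was at 1223, 956 and 1308 CPM and at 3325 in 2D. IFI6, a mitochondrial protein that holds back apoptosis, was at 1099, 933 and 1352 CPM. For IFI6, ISG15 and IFIT5 the nearer end gel was PF, and for the other 20 of the 23 it was PF+3%PEGDA. The fold to the nearer end gel ran from 1.08 (IRF9) to 1.76 (RSAD2) over the 23, with a median of 1.40.

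The list also holds sensors and signalling proteins that are themselves induced. DDX58, which encodes RIG-I, was at 86.6, 60.3 and 85.6 CPM, and IFIH1, which encodes MDA5, at 118, 57.3 and 81.9 CPM. IRF9 was at 175, 136 and 147 CPM. STAT2, at 289, 107 and 114 CPM, and IRF1, at 39.2, 35.0 and 43.3 CPM, were below both without an interval that excluded equality. IFI27 (63.1, 64.7 and 75.4 CPM) and ISG20 (30.5, 26.1 and 22.0 CPM) lay between the end gels.

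The receptors and kinases upstream were not in the list and were taken up after earlier values were seen. Of 7, 5 lay between the end gels: IFNAR1 at 129, 133 and 142 CPM, IFNAR2 at 20.7, 23.4 and 28.6, IFNGR2 at 148, 188 and 216, JAK1 at 107, 104 and 99.8, and TYK2 at 177, 124 and 112. IFNLR1 was below both at 10.4, 10.2 and 11.1 CPM and IFNGR1 above both at 19.9, 25.7 and 24.6, neither by the intervals. Interferon genes themselves had too few counts to compare. In the PF, 2% and 3% gels IFNB1 had 3, 1 and 7 counts, IFNE 10, 12 and 3, IFNL1 0, 3 and 4, and IFNL2 0, 5 and 5.

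Some interferon-induced genes outside the list are given as values only, since they were picked after their values were seen. UBA7, the enzyme that activates ISG15, was called below both at 20.0, 8.37 and 13.5 CPM, as was CMPK2. PARP14 was at 354, 174 and 220 CPM, EIF2AK2, the kinase PKR, at 323, 183 and 211, and XAF1 at 28.6, 5.47 and 8.05, all 3 below both by the intervals. SP110 (50.5, 32.4 and 36.4 CPM) and TLR3 (4.56, 3.73 and 5.92 CPM) were below both without that.

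**Figure D2:**
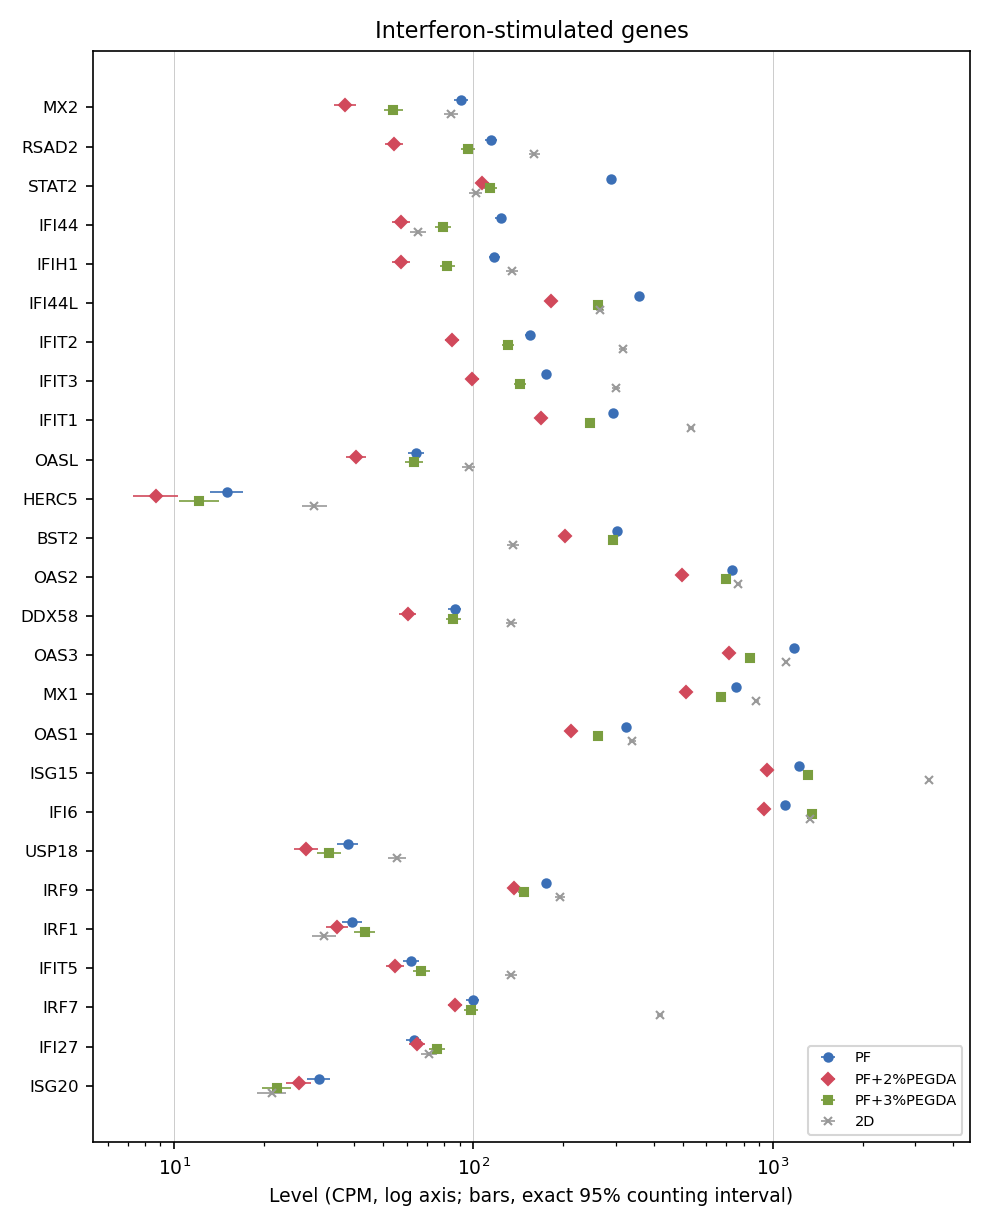
Level in CPM on a log axis for 26 of the 27 measured interferon-stimulated genes in the 4 libraries, with bars for the exact 95% counting interval and genes ordered by the ratio of PF+2%PEGDA to the mean of the end gels. The PF+2%PEGDA diamond is the leftmost of the 3 EPCaT symbols for every gene plotted except IFI27 and ISG20.

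Other measures moved beside this group. PF was above PF+3%PEGDA for 22 of the 27 genes. Across 11693 genes with a transcript length, the log2 ratio of PF+2%PEGDA to PF had a Spearman correlation with length of -0.37 and the ratio to PF+3%PEGDA one of -0.05, over genes that share the libraries. With the length and GC trends removed the median of the group was -0.64. The sums of fibroblast and epithelial markers, given above, were slightly higher in PF+2%PEGDA than in both end gels. By gene, however, 17 of the 21 fibroblast and 13 of the 26 epithelial markers lay between the end gels. The fibroblast sum includes SPARC, at 208, 481 and 391 CPM in the PF, 2% and 3% gels. The part of cell content in the result was not tested. Antigen presentation genes, which interferon also induces, were less uniform: 6 of 12 were below both by level, beside 22.6% of all genes, and 3 by the intervals, beside 5.36%. TAP2, a peptide transporter subunit, was at 139, 83.3 and 96.1 CPM in the PF, 2% and 3% gels, TAP1 at 162, 147 and 190, and HLA-C at 941, 870 and 942.

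Of the 72 genes called below both, many had counts that depend on how reads were divided between similar sequences. A gene was taken to share sequence when at least 50% of its 50-base words occur in another gene, or when it is a read-through gene, a pseudogene or a row identical to another. That held for 24 of the 72 below (33.3%) and 11 of the 47 above (23.4%), against 4.42% of all genes tested. For 26 called genes the counts could be summed with those of the genes that share their sequence, and 0 of the 26 sums were called, with 12 outside both end gels in the same direction. The partners were together more abundant than the called gene in 21 of the 26, so a sum can dilute the gene.

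Of the 15 genes farthest above both end gels 6 shared sequence, and of the 15 farthest below 11 did, 5 of which were the copies of 18S ribosomal RNA. GPR75-ASB3, a read-through of 2 neighbours, was at 0.360, 5.47 and 0.512 CPM in the PF, 2% and 3% gels, and the sum with ASB3 and GPR75 was 14.9, 15.3 and 16.0 CPM. CBS, cystathionine beta-synthase, was called above at 3.24, 8.95 and 4.90 CPM and its near-identical copy CBSL below at 13.9, 2.57 and 8.78, while their sum was 17.1, 11.5 and 13.7. HNRNPH2, a splicing regulator that is not among those 15 and has under 50% of its words in common with another gene, was called below at 107, 30.2 and 49.1 CPM, and with RPL36A-HNRNPH2 the sum was 144, 151 and 148. NME1-NME2 (3.96, 10.2 and 3.95 CPM), DNAAF4-CCPG1 (1.20, 5.73 and 0.146 CPM) and IPO11-LRRC70 (0.420, 5.28 and 1.02 CPM) were called above, and none of the 3 sums lay above both. PGAM4 (2.88, 15.3 and 8.63 CPM) is a retrogene of the glycolytic enzyme gene PGAM1, with which its sum was 438, 655 and 685. These values are therefore uncertain as levels of the single genes.

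**Figure D3:**
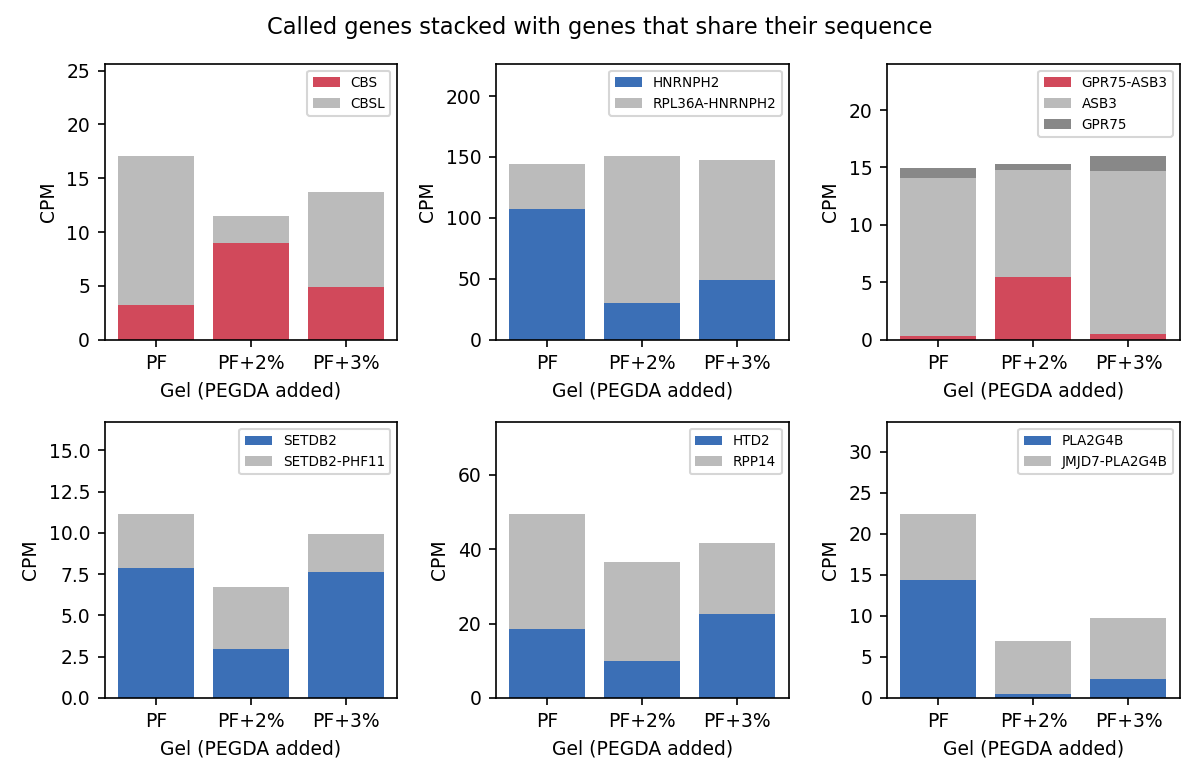
Stacked levels in CPM of 6 called genes (red, called above; blue, called below) and the genes that share their sequence (grey) in the 3 EPCaTs. For HNRNPH2 and GPR75-ASB3 the coloured part changes while the height of the stack stays between 144 and 151 or between 14.9 and 16.0 CPM; for CBS, SETDB2, HTD2 and PLA2G4B the stack is lowest in PF+2%PEGDA.

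Among the 12 whose sum lay outside both end gels in the same direction were 4 of the genes farthest from them, CBSL, given above, and 3 others. SETDB2, of the histone methyltransferase family, was at 7.85, 2.96 and 7.61 CPM and its sum with SETDB2-PHF11 at 11.2, 6.69 and 9.95. PLA2G4B, a phospholipase, was at 14.3, 0.450 and 2.34 CPM and its sum with JMJD7-PLA2G4B at 22.4, 6.89 and 9.73. PCDHGC3, a clustered protocadherin used in neuronal cell contact, was called above at 6.29, 19.8 and 6.36 CPM, and its sum with 6 genes of its cluster was 12.5, 29.7 and 23.7.

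Ribosomal and nuclear RNAs were mixed in their order. The 5 annotated copies of 18S ribosomal RNA had identical values of 757, 222 and 457 CPM in the PF, 2% and 3% gels and 149 in 2D. They count as 1 measurement, and their sum was 3784, 1108, 2284 and 745 CPM. The libraries were made from poly-A RNA, so this is the ribosomal RNA left over. The 28S copy RNA28SN1 kept the order of the gels, at 3583, 1025 and 881 CPM, and so did NEAT1, given above, while the copy RNA28SN3 was below both at 2020, 1169 and 1282 CPM. MALAT1, an abundant nuclear long noncoding RNA, was at 369, 47.3 and 82.1 CPM and at 15.6 in 2D (1.74-fold under the nearer end gel, 1.58 to 1.91), and its antisense partner TALAM1 at 61.3, 7.98 and 12.8. Strand handling behind the counts was not stated, so it is not known whether reads of MALAT1 and TALAM1 were told apart. RN7SK, the small nuclear RNA that restrains transcription elongation, had 130, 26 and 50 counts. It has 100% of its 50-base words in common with other genes, so these counts depend on how reads were divided. MALAT1, RN7SK and 18S RNA were each highest in PF among the EPCaTs, and for MALAT1 the PF level was far above both PEGDA gels. The 18S sum was 3.42-fold higher in PF than in the 2% gel, and 2.06-fold higher in the 3% gel than in the 2% gel. Over 23 splicing factors and nuclear RNAs, 4 were below both by level (17.4%, under the 22.6% of all genes), and MALAT1 alone was called.

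Many of the genes called below both were of low abundance. Of the 72, 41 (56.9%) stayed under 10 CPM in their highest EPCaT library and 25 (34.7%) were not protein coding, against 10.9% and 4.32% of all genes tested. For 45 of the 72 the PF+2%PEGDA level was under 5 CPM, as for 427 of all 12048 genes. Such genes entered only through an end gel where they were higher, so their number was not read as a result. Genes beyond the 15 nearest the top of each direction were picked for naming after their values were seen. CARD8, an inflammasome sensor, was at 17.6, 10.3 and 16.8 CPM in the PF, 2% and 3% gels, and JPH2, which ties the endoplasmic reticulum to the plasma membrane, at 29.9, 16.8 and 25.8. PLEKHH2 (13.0, 5.66 and 10.8 CPM), the kinase anchor AKAP5 (11.0, 4.12 and 8.05 CPM) and the ubiquitin ligase HACE1 (9.41, 4.63 and 8.70 CPM) had the same shape. LOC727751 (6.35, 0.322 and 6.58 CPM) was the farthest below. It was counted among genes that share sequence because it is a pseudogene, with no share of words computed for it.

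The 47 genes called above both were less abundant still. Their median level in the highest EPCaT library was 7.59 CPM, against 42.4 CPM over all genes tested, 34 (72.3%) stayed under 10 CPM, and 31 entered only because their PF+2%PEGDA level passed 5 CPM. Such genes had to be high in PF+2%PEGDA, so their number was not read as a result. The highest count in PF+2%PEGDA among those that do not share sequence was that of FCGBP, a mucin-like protein of epithelial mucus, at 21.1, 44.0 and 24.5 CPM in the PF, 2% and 3% gels and 2.53 in 2D (683 counts in PF+2%PEGDA, 1.79-fold over the nearer end gel, 1.57 to 2.05). PI3, the elastase inhibitor elafin, was at 19.1, 36.6 and 24.1 CPM (1.52-fold, 1.32 to 1.74) and at 66.8 in 2D. FCGBP was lowest in 2D and PI3 highest there.

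The receptors TBXA2R and FLT1 and the ligands SEMA6B and DLL3 were among those called. TBXA2R, FLT1 and DLL3 passed 5 CPM only in PF+2%PEGDA among the EPCaTs. TBXA2R, the thromboxane receptor, was at 3.18, 8.69 and 3.36 CPM (2.58-fold over the nearer end gel, 1.84 to 3.69). FLT1, the VEGF receptor 1, was at 2.88, 5.86 and 2.49 CPM and at 43.8 in 2D (2.04-fold, 1.42 to 2.95). SEMA6B, a transmembrane semaphorin that guides axons, was at 6.17, 13.6 and 7.10 CPM. DLL3, an inhibitory Notch ligand, was at 3.24, 7.92 and 4.83 CPM. For TBXA2R, FLT1 and SEMA6B the end gels differed little from each other.

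MMP11, a stromal matrix protease, was at 7.49, 12.9 and 6.51 CPM in the PF, 2% and 3% gels (1.73-fold over the nearer end gel, 1.37 to 2.18). FGB, the fibrinogen beta chain, was at 2.64, 5.28 and 1.32 CPM with 0 counts in 2D. The gel itself contains fibrinogen protein, but these are transcripts. ACE, the angiotensin-converting enzyme, was above both at 4.62, 7.98 and 3.88 CPM. COQ3, of ubiquinone synthesis, was at 3.30, 6.56 and 2.34 CPM, and AKR1B10, an NRF2-induced reductase, at 3.18, 6.44 and 4.02. TMOD1, which caps actin filaments, was at 1.26, 5.21 and 2.56 CPM. GAS5, the host gene of small nucleolar RNAs, was at 1.62, 6.44 and 3.80 CPM, and HOXA5 at 3.42, 5.66 and 3.00. Of the genes in this paragraph, all but MMP11 passed 5 CPM only in PF+2%PEGDA among the EPCaTs.

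**Figure D4:**
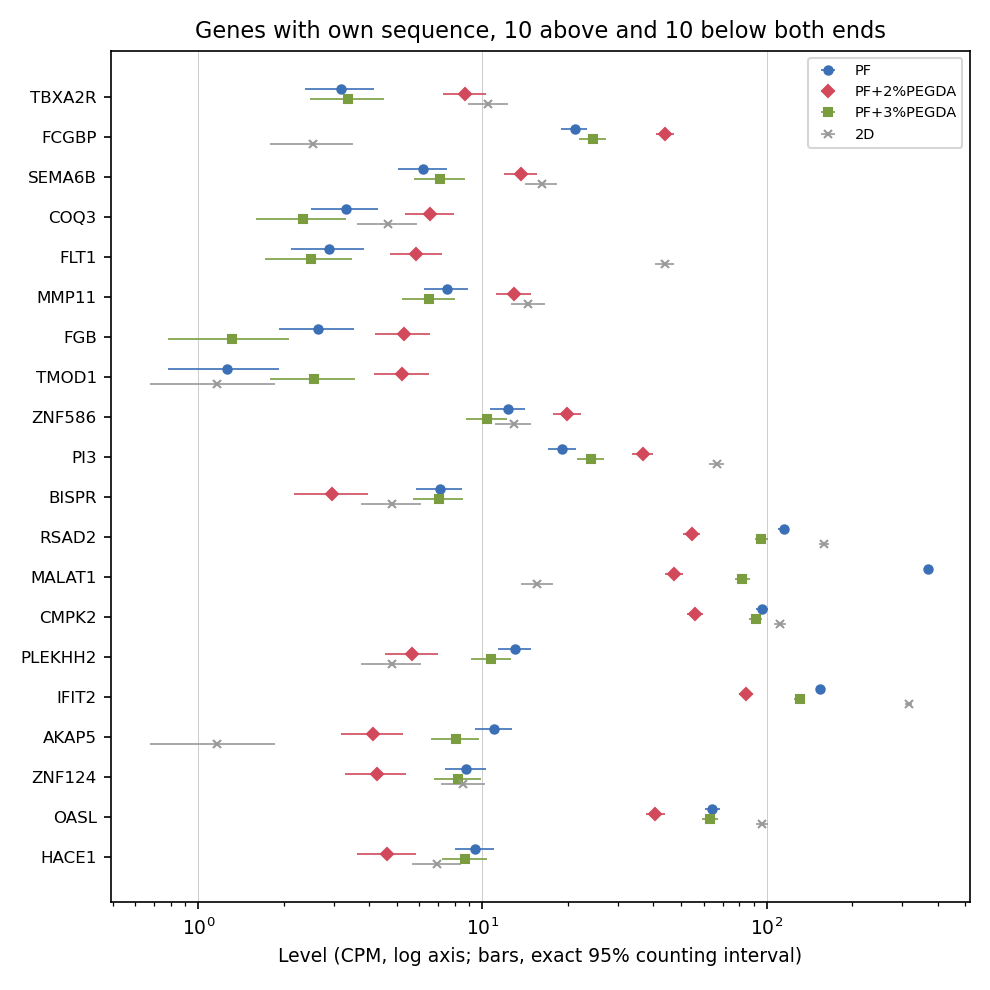
Level in CPM on a log axis for 10 genes called above and 10 called below both end gels, leaving out genes that share sequence, with bars for the exact 95% counting interval. In the upper 10 the PF+2%PEGDA diamond lies right of both end gels, with the widest gap for TBXA2R, and in the lower 10 it lies left of both.

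Groups above both end gels differed less from the nearer end. Of 32 ribosomal protein genes, 22 (68.8%) were above both by level, beside 24.0% of all genes, 18 by the intervals (6.75% of all genes), and none by 1.5-fold. RPS27 was at 58.4, 379 and 279 CPM in the PF, 2% and 3% gels (1.36-fold over the nearer end gel, 1.30 to 1.41), RPL38 at 140, 255 and 192, and RPL8 at 1268, 1945 and 1578. The list median was 0.94 to PF and 0.09 to PF+3%PEGDA, so nearly all of its distance was from PF. With the length and GC trends removed, its median to the mean of the end gels moved from 0.46 to 0.35. Of 26 nuclear genes of oxidative phosphorylation, 15 (57.7%) were above both by level and 8 (30.8%) by the intervals, beside 24.0% and 6.75% of all genes. Among them NDUFA1 of complex I was at 25.1, 42.9 and 30.1 CPM and CYC1 of complex III at 241, 298 and 242. The median of these 26 genes was 0.44 to PF and 0.08 to PF+3%PEGDA, so here too most of the distance was from PF.

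Of 21 measured collagen genes, 9 (42.9%) were above both by level, beside 24.0% of all genes, and 7 (33.3%) by the intervals, beside 6.75%. None was below both, beside 22.6% of all genes. COL6A1 was at 861, 1134 and 983 CPM in the PF, 2% and 3% gels (1.15-fold over the nearer end gel, 1.13 to 1.18) and COL6A2 at 737, 1004 and 868. COL1A1, the main fibrillar collagen of fibroblasts, was at 307, 365 and 246 CPM (1.19-fold, 1.14 to 1.23), while COL1A2 lay between at 121, 105 and 49.4. COL2A1, the cartilage collagen, was at 449, 515 and 390 CPM and at 14.2 in 2D. FN1, fibronectin, at 311, 413 and 338 CPM, SPARC at 208, 481 and 391, and the YAP target CCN2 at 71.7, 108 and 78.7 were also above both. These 3 are single genes, and the YAP target CCN1 lay between at 108, 81.9 and 69.8 CPM. Above both by level were 6 of 24 basement membrane and matrix glycoproteins and 4 of 21 fibroblast markers, beside 24.0% of all genes. Of 18 YAP and TAZ targets, 6 were above both and 10 lay between. The 2D coculture was higher than every EPCaT for COL1A1, COL6A1, FN1 and CCN2.

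Stress and growth-factor targets held smaller counts. Of 27 immediate early genes, 13 (48.1%) were above both by level, beside 24.0% of all genes, and 5 (18.5%) by the intervals, beside 6.75%, among them FOSL1, an AP-1 subunit, at 434, 541 and 456 CPM and IER3 at 157, 222 and 205. MYC was at 83.9, 90.5 and 82.2 CPM, and EGR1 at 5.04, 5.47 and 5.41, without an interval that excluded equality for EGR1. FOS went the other way and was below both at 5.75, 2.51 and 3.36 CPM, also without such an interval. Below both by level were 2 of the 27 (7.41%), beside 22.6% of all genes. LDHB was at 118, 159 and 123 CPM (1.29-fold over the nearer end gel, 1.21 to 1.37), where 13 of the 18 glycolysis genes (72.2%) lay between the end gels, beside 53.4% of all genes tested. VEGFA was below both at 215, 144 and 159 CPM, where 19 of 27 hypoxia genes (70.4%) lay between.

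Of all genes tested, 6432 (53.4%) lay between the end gels, and in several lists most genes did. For cholesterol synthesis 24 of 25 genes lay between the end gels, with HMGCS1, the synthase at the head of the pathway, at 97.0, 116 and 163 CPM. For G2 and M phase 23 of 26 lay between, with MKI67 at 119, 49.0 and 25.8 CPM and TOP2A at 98.0, 59.4 and 30.6, and for S phase 21 of 25. The metallothioneins MT2A (48.5, 124 and 183 CPM) and MT1X (6.83, 21.8 and 37.2 CPM) were in order too, as were all 3 measured genes of that list. None of the genes of these 4 lists was below both end gels.

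**Figure D5:**
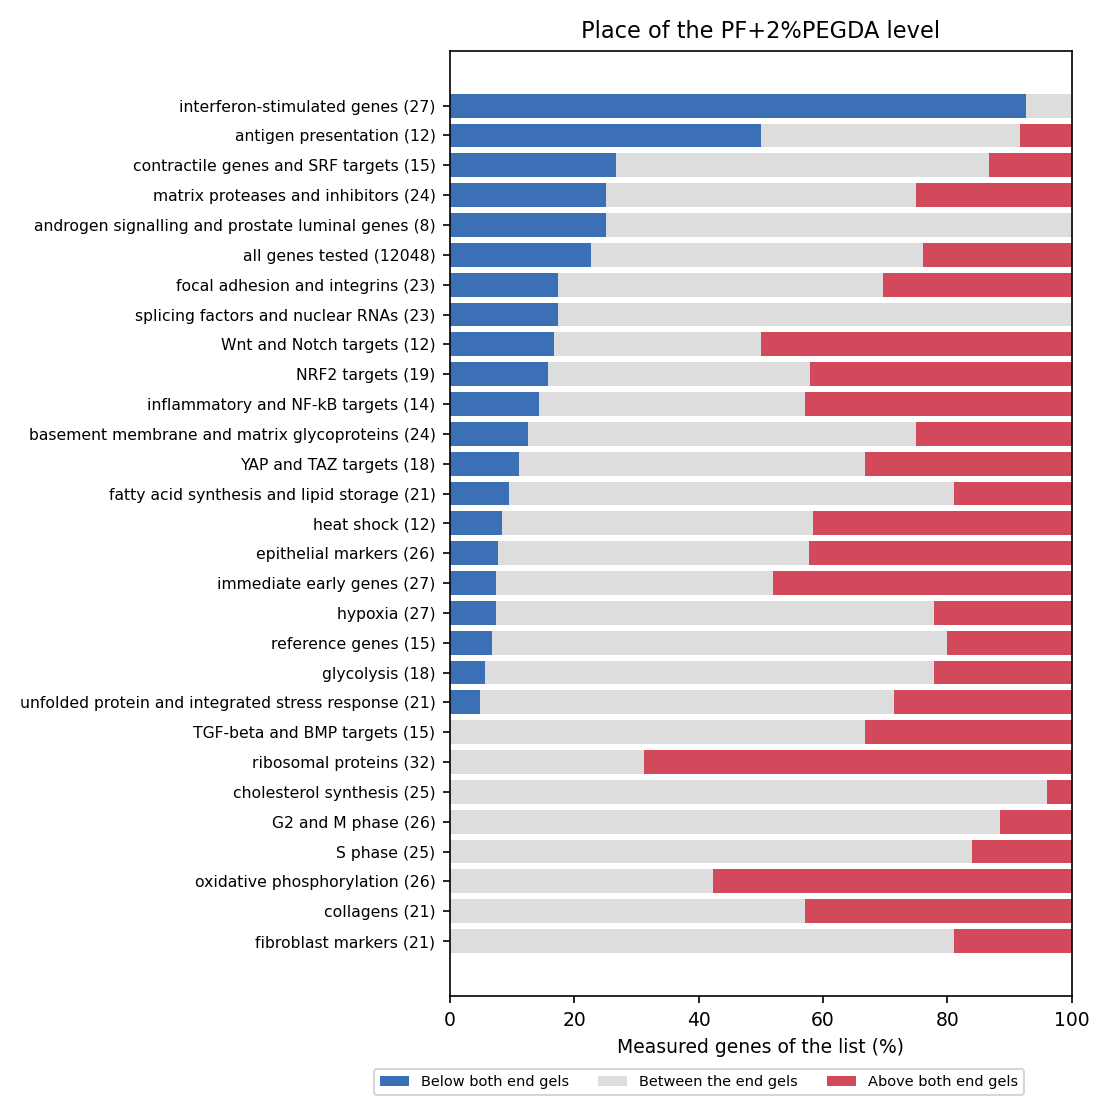
Share of the measured genes of each list (number in parentheses) whose PF+2%PEGDA level was below both end gels (blue), between them (grey) or above both (red), in percent, for lists with at least 8 measured genes, 1 list left out. Interferon-stimulated genes have the longest blue bar (92.6%) and ribosomal proteins the longest red bar (68.8%), where all genes tested have 22.6% and 24.0%.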

How the data were processed

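RNA of 3 EPCaTs and 1 2D coculture was sequenced, 1 library each. The authors deposited 1 table of expected counts (estimated read counts per gene, unscaled). FastQC, STAR, Partek and hg38 are named, per the submitters' processing notes; versions, annotation and counting method are not given in the sources used here. Between 18.2% and 19.9% of values were not whole (tolerance 0.01), so all were rounded. Libraries were scaled by the trimmed mean of M-values over 4 libraries (edgeR 4.0.16, R 4.3.3). Ratios used a prior count of 0.5 and exact Clopper-Pearson 95% intervals (Python 3.11.15, scipy 1.17.1, numpy 2.4.6, pandas 2.3.3, matplotlib 3.10.9). These cover counting error only, since reads are not independent molecules, and no variation between cultures. No group had a replicate, so groups were not tested against each other. The steps were tested on simulated data.

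The members and the 33 gene lists were chosen with earlier results of these data known. Named genes were the 15 called above and 15 called below whose interval bound lay farthest from equality, up to 4 members of each list described (called, then most abundant), and fixed genes; others named were picked after their values were seen. A few genes are not reported here. Shared sequence was computed from GENCODE release 29. Coordinates and promoters are from RefSeq (GRCh38.p14). Alternatives covered scaling with DESeq2 1.42.0, the level filter, fold, interval, prior count and sequence.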

Additional observations from a re-analysis of the deposited data

How the results depend on the processing

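The count called above both end gels was 153 at a minimum of 1 CPM, 13 at 10 CPM, 193 without a filter, 8 at 2-fold and 813 with intervals alone. Below both these were 178, 31, 216, 18 and 646. Against the mean of the end gels they were 430, 74, 610, 27 and 3089 above, and 860, 283, 1028, 131 and 3125 below. Other scalings gave 45 to 48 above and 71 to 73 below. Leaving out genes that share sequence, chosen after seeing the data, gave 36 and 48. Removing length and GC trends, also chosen then, gave 44 and 58, of which 34 and 48 were called without it.

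List medians to the mean moved, with length and GC trends removed, to -0.64 for interferon-stimulated genes, -0.17 for antigen presentation, 0.35 for ribosomal proteins and 0.15 for reference genes. With the geometric mean they moved to 0.15 for glycolysis, 0.40 for metallothioneins and 0.52 for ribosomal proteins. At 1 CPM or without a filter, that of inflammatory targets moved to -0.14. Of 287 such alternatives 278 moved by less than the counting error of a typical (median) member of the list, which is not the spread of the list. Over the alternatives, the number of interferon-stimulated genes below both by the intervals was 22 to 24 and RSAD2 stayed at -0.82 to -0.79 (log2 to the nearer end gel). For the 172 named genes, 2909 alternative values held 0 called values that changed direction, 34 that lost their call, 131 that gained one and 146 others that moved. No paired analysis was possible because each group has 1 library, and no library could be left out. Depth limits genes near 5 CPM, where 1 EPCaT level rests on under 100 counts.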
